A study of Mus musculus with 2 samples.

Results

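The cadherin genes described here in the mouse hippocampus number 10: Cdh2 and Cdh4, which are type I or classical cadherins, Cdh6, Cdh8, Cdh9, Cdh10, Cdh11, Cdh12 and Cdh18, which are type II cadherins, and Cdh13. Cdh13 is T-cadherin, which is held in the membrane by a glycosylphosphatidylinositol (GPI) anchor, so it is neither classical nor type II in the strict sense. The 10 genes were taken by symbol from 55536 gene rows, together with their 47 annotated transcripts. The material was adult hippocampus of the C57BL/6 mouse strain (the labels also name the substrain B6NCrl) at 6 months of age. It came as 2 polyA RNA-seq libraries of 1 group, replicate 1 and replicate 2, each made from 20 ng of RNA by Nextera tagmentation. There was no treated, mutant or second group. The labels number the libraries as biological replicates but give both the same donor identifier, so they may come from 1 animal, and each SD describes these 2 libraries, whose spread may be technical. The measurement therefore answers how abundant each cadherin transcript was in this tissue and how well the value held between the 2 libraries.

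Cadherins are calcium-dependent adhesion proteins that bind cadherins on the facing cell. Type I and type II members have a cytoplasmic tail whose end binds beta-catenin, which through alpha-catenin links the adhesion site to actin. In the hippocampus N-cadherin (Cdh2) is found at many synapses, while type II cadherins are spread unevenly over cell types and recognise each other in specificity groups; Cdh6, Cdh9 and Cdh10 form one such group, and Cdh8 and Cdh11 belong to another. Cdh9 is known for its part in mossy fibre synapses between dentate granule cells and CA3.

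The libraries held 38921579 and 39499352 estimated reads on genes in replicate 1 and replicate 2, by the program whose gene tables are used here unless the other is named. Markers of hippocampal cells were present: all 4 CA1, all 4 CA3 and all 5 dentate granule markers reached a level of 1 TPM (a length-corrected share of all transcripts) in both libraries. Markers of neighbouring regions were present too, with 5 of 5 thalamus, 6 of 6 striatum and 5 of 6 neocortex markers at that level. Choroid plexus markers separated the libraries: all 8 were lower in replicate 2 and they summed to 15286 TPM in replicate 1 against 132 TPM in replicate 2. Of the other markers, Rorb of neocortex (21.1 and 7.30 TPM), Dynlrb2 of ependyma (35.5 and 15.7 TPM) and Igf2 of meninges (15.9 and 4.94 TPM) were called lower in replicate 2, and the meningeal Slc6a13 (6.36 and 14.9 TPM) and Slc22a6 (0.34 and 0.86 TPM) higher, by the rule given with the comparison of the libraries. The summed astrocyte markers were 770 and 660 TPM, the summed glutamatergic neuron markers 1551 and 1852 TPM and the summed mural cell markers 60.8 and 78.1 TPM. The description in the labels says male and the sex field says not collected; 4 Y-linked genes held 1 read in replicate 1 and 0 in replicate 2, against 694 and 611 reads of Xist. Part of each cadherin value may move with the makeup of the piece of tissue, and this was not tested.

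The coding sequences of the members were compared with each other. Near its 3′ end every tailed member holds a short stretch that belongs to the catenin-binding end of the tail, which is why it is shown here. Below are 36 coding bases from the full-length form of 7 members, with GRCm38 (mm10) coordinates and capitals at the 14 positions where all 7 had the same base.
Cdh4, chr2:179895865-179895900, plus strand: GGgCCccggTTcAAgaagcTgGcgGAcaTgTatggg
Cdh6, chr15:13034227-13034262, minus strand: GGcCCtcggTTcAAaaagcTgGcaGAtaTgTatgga
Cdh9, chr15:16856183-16856218, plus strand: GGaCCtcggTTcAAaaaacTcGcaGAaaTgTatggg
Cdh10, chr15:19013620-19013655, plus strand: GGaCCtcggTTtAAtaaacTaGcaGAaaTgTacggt
Cdh12, chr15:21586410-21586445, plus strand: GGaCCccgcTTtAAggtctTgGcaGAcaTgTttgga
Cdh18, chr15:23474356-23474391, plus strand: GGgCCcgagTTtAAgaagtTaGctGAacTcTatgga
Cdh8, chr8:99030592-99030627, minus strand: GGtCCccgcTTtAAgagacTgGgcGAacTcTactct
Against the Cdh6 stretch, the other type II members matched at 20 (Cdh8) to 31 (Cdh9) of the 36 bases. The 2 type I members matched at 30 bases in Cdh4 and 27 in Cdh2, within the range of the type II members, so this stretch did not divide the 2 types. In Cdh13, whose GPI-anchored protein has no cytoplasmic tail, the best match in the last 90 coding bases was 15 of 36. Every printed stretch lay inside a single exon and ended 18 to 36 coding bases before the end of the coding sequence.

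Over the whole coding sequence the closest pairs were members of the Cdh6, Cdh9 and Cdh10 group. Cdh6 and Cdh10 were identical at 71.8% of aligned bases, Cdh6 and Cdh9 at 70.8% and Cdh9 and Cdh10 at 70.3%. Cdh2 and Cdh4 followed at 68.9%, and Cdh8 and Cdh11 at 68.1%. The 21 type II pairs ranged from 62.6% to 71.8%. The 14 pairs of a type I with a type II member ranged from 60.8% to 63.1%, and the 9 pairs with Cdh13 from 59.7% to 63.2%. The members also lie together in the genome. Cdh6, Cdh9, Cdh10, Cdh12 and Cdh18 follow each other on chromosome 15 with 0 protein-coding genes between any neighbours, over gaps of 3555, 1962, 1435 and 959 kb. Cdh8 and Cdh11 stand side by side on chromosome 8, 3216 kb apart and again with 0 coding genes between them, and the next coding gene is the endothelial cadherin Cdh5. Cdh13 is further along chromosome 8 (118283733 to 119324921), Cdh4 is on chromosome 2 and Cdh2 on chromosome 18. The genes are long: their median span was 306 kb, against 17.4 kb for 21951 protein-coding genes.

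All 10 members were detected, and 2 of them made up most of the signal. Cdh2 reached 31.99 TPM in replicate 1 and 37.28 in replicate 2. Cdh13 reached 32.32 and 32.58 TPM. The values of the 2 genes overlapped between the libraries, so their order by gene TPM could not be told. With protein-coding transcripts only, Cdh2 held 29.6% ± 3.43 of the summed TPM and Cdh13 24.7% ± 0.269. In reads, which are not corrected for length, Cdh2 stood above Cdh13 in both libraries. Together the 2 genes held 52.6% ± 1.67 (SD, n = 2) of the summed TPM of the 10 genes (125.18 and 130.01 TPM). By class, the 7 type II genes held 44.8% ± 1.31, the 2 type I genes 29.7% ± 1.84 and Cdh13 25.4% ± 0.537.

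**Figure D1:**
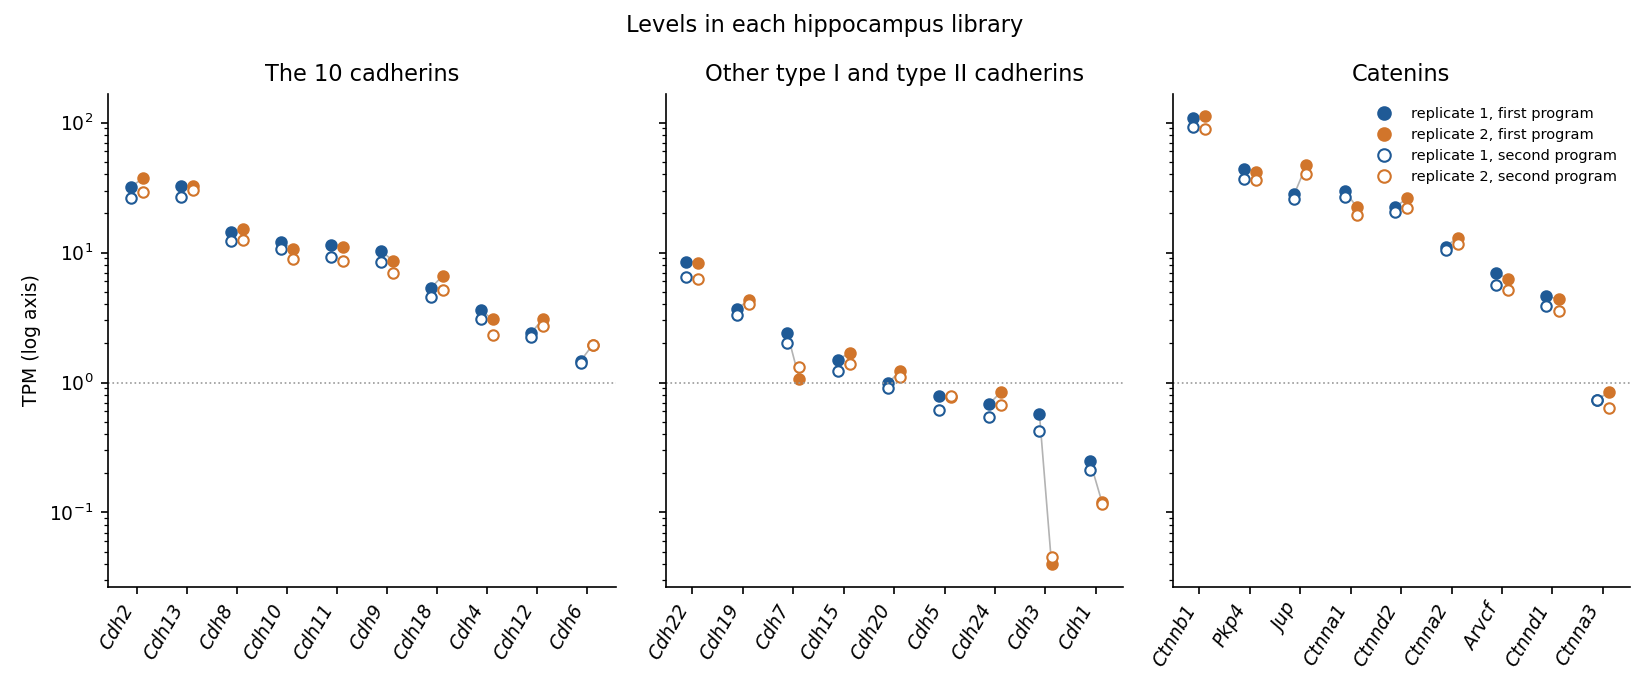
Level (TPM, log axis) of each gene in each library by each of 2 quantification programs; a line joins the 2 libraries of the first program and the dotted line marks 1 TPM. Cdh2 and Cdh13 stand above 30 TPM in the first program, and all 10 members lie above 1 TPM, which 5 of the 9 other type I and type II cadherins do not in both libraries.

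Among the type II members Cdh8 was highest, at 14.31 and 15.13 TPM. Cdh10 followed at 12.10 and 10.62 TPM and Cdh11, which is also a cadherin of mesenchymal cells, at 11.36 and 11.01 TPM. These 2 overlapped and were not separated. Cdh9 was at 10.32 and 8.68 TPM, below Cdh11 in both libraries. Cdh18, a type II cadherin of the nervous system, was at 5.33 and 6.63 TPM. Cdh12, or brain cadherin, was at 2.39 and 3.07 TPM, and Cdh6, or kidney cadherin, was lowest at 1.47 and 1.95 TPM. The type I member Cdh4, or retinal cadherin, was at 3.59 and 3.06 TPM and overlapped with Cdh12. In the whole order, 6 of 9 neighbouring pairs did not overlap between the libraries. Cdh2 stood above 72.9% and 75.7% of the 13787 genes detected in both libraries, and Cdh6 above 4.15% and 9.55% of them. In bulk tissue fewer cells of a type and less RNA per cell cannot be told apart.

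Neighbours on chromosome 15 were not alike in level. From Cdh6 along the chromosome to Cdh18 the mean levels were 1.71 ± 0.339, 9.50 ± 1.16, 11.36 ± 1.05, 2.73 ± 0.481 and 5.98 ± 0.919 TPM (SD, n = 2). The closely related Cdh6, Cdh9 and Cdh10 thus included both the lowest member and 2 of the 4 highest type II members. Cdh8 and Cdh11, neighbours on chromosome 8, were at 14.7 ± 0.580 and 11.2 ± 0.247 TPM.

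The second quantification of the same reads gave lower levels for every member in both libraries. Its TPM was 0.754 to 0.989 times that of the first program in the members, while the median ratio over all detected genes was 0.854 in replicate 1 and 0.828 in replicate 2. The rank among the 10 was the same in both programs for 10 members in replicate 1 and for 6 in replicate 2. Cdh13 led Cdh2 there in both libraries, with 26.96 against 26.25 TPM in replicate 1 and 30.13 against 29.20 TPM in replicate 2. The coding form Cdh13-201 alone was at 23.69 and 21.58 TPM in that program, and the rest of Cdh13 lay on noncoding transcripts.

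Between the libraries, most members differed little. Reads were compared with an exact binomial test over 14078 genes with a mean of at least 50 reads, and a gene was called where the adjusted p was under 0.05 and the log2 ratio of counts (replicate 2 over replicate 1) at least 1 in size. Of the 10 members 1 was called, against 2.41% of all genes tested; it was lower in replicate 2 (all genes 1.97%), and 0 were higher (all genes 0.433%). The median size of the log2 ratio was 0.19 in the members and 0.16 over all genes. At any size, 7 of the 10 had an adjusted p under 0.05, against 46.8% of all genes, 3 of them higher and 4 lower in replicate 2. That test covers counting error only. With a preset dispersion of 0.01 in edgeR's exact test, which stands for a coefficient of variation of 10% between libraries, 1 member (Cdh4) and 4.01% of all genes had an adjusted p under 0.05. The coefficient of variation estimated from these 2 libraries, taken as replicates, was 16.6%. With that dispersion, an alternative chosen after seeing the data, 0 members and 1.24% of all genes passed in edgeR's exact test.

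**Figure D2:**
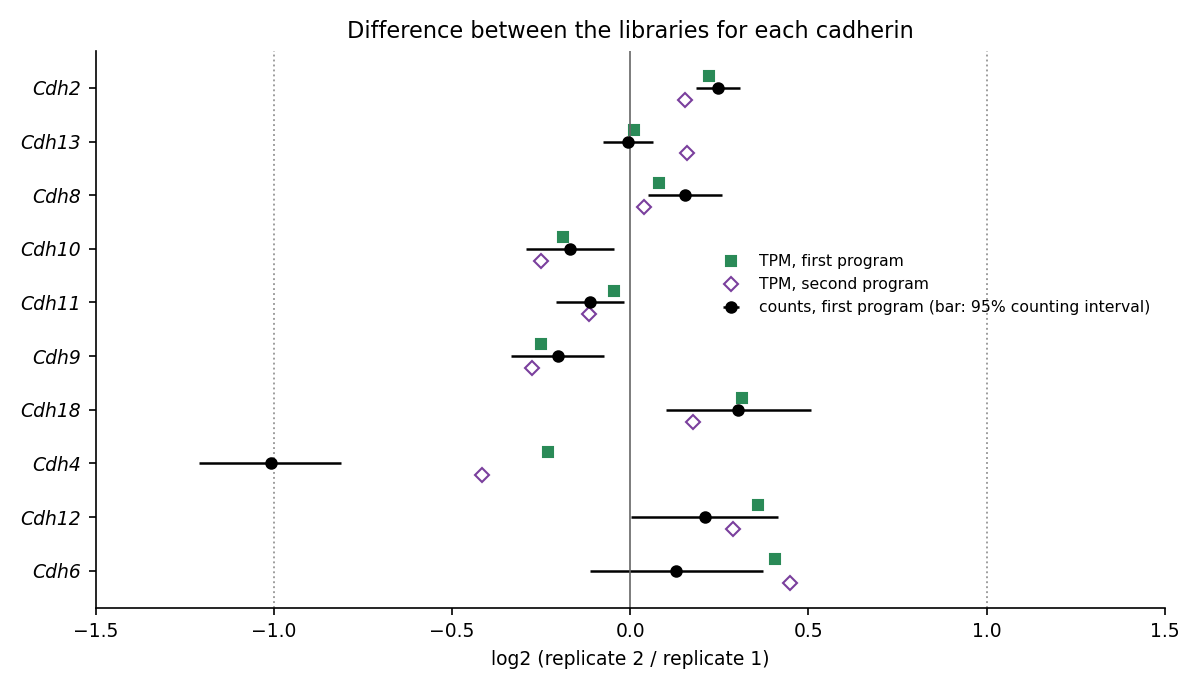
Log2 ratio of replicate 2 over replicate 1 for each cadherin from counts with the 95% counting interval (black), from TPM of the first program (green squares) and from TPM of the second program (open diamonds); dotted lines mark the call threshold of 1. Cdh4 stands apart in counts, and its TPM ratios lie nearer to 0.

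Cdh2 held 3936 and 4692 reads, a log2 ratio of 0.25 with a 95% counting interval from 0.18 to 0.31. Cdh13 held 3286 and 3292 reads, a ratio of -0.005 with an interval from -0.075 to 0.065, which makes it the member whose counts differed least. Cdh8 (1440 and 1611 reads, 0.15) and Cdh18 (362 and 449 reads, 0.30) were higher in replicate 2, both past an adjusted p of 0.05 by the exact binomial test. Cdh10 (1125 and 1006 reads, -0.17), Cdh9 (1045 and 912 reads, -0.20) and Cdh11 (1863 and 1733 reads, -0.11) were lower in replicate 2 by the same test. The counting intervals of these 5 genes stayed between -0.33 and 0.51. Cdh12, with 364 and 423 reads, had an adjusted p of 0.089 in that exact test, and Cdh6, with 270 and 297 reads, one of 0.42. For Cdh6 the interval ran from -0.11 to 0.37.

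Cdh4 was the called member, and its reads and its TPM did not tell the same story. It held 627 reads in replicate 1 and 313 in replicate 2, a log2 ratio of -1.01 with a counting interval from -1.21 to -0.81 (exact binomial test, Benjamini-Hochberg adjusted p = 4.9e-24). Its adjusted p was 0.00061 in edgeR's exact test with the preset dispersion and 0.25 with the estimated one, which ended the call. The regional and choroid plexus markers named above also differed between these libraries, and their part in the Cdh4 difference was not tested. The estimate lay at the threshold of 1, and it fell just short of it with a prior count of 5 (-0.998) and with the second program's counts (-0.99). By TPM its log2 ratio was -0.23 with the first program and -0.42 with the other. The gap of 0.78 between the count and TPM ratios was over 0.5, as it was for 1.70% of all genes, and no other member had such a gap. The effective length that the program assigned to Cdh4 was 5736 bases in replicate 1 and 3301 bases in replicate 2.

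The transcripts of Cdh4 show where that length came from. Cdh4-201, the 6388-base transcript that encodes the full protein, held 623 and 280 reads, or 3.28 and 1.45 TPM. Cdh4-205 is a 747-base transcript annotated as retaining an intron (extra part chr2:179893884-179894027). The first program put it at 0 TPM (0 reads) in replicate 1 and at 1.01 TPM (19.0 reads) in replicate 2. By counting error alone, a count of 0 allows up to 3 reads. The program's credibility bounds were wider and overlapped: up to 0.73 TPM in replicate 1, and 0.31 to 1.77 TPM in replicate 2. Cdh4-205 shares 603 of its bases with Cdh4-201, so the division of reads between them rests on each program's model. Cdh4-203, which parts from the full form after 868 coding bases, held 1.47 and 11.5 reads. The second program also put more reads on Cdh4-205 in replicate 2, with 2.83 and 23.6 reads. Leaving Cdh4-205 out of the counts, an alternative chosen after seeing the data, gave a log2 ratio of -1.10 (interval -1.30 to -0.90). The 19.0 reads of Cdh4-205 thus carried 33.0% of the TPM of Cdh4 in replicate 2, while the full form held 47.4% of it and had fewer reads than in replicate 1.

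**Figure D3:**
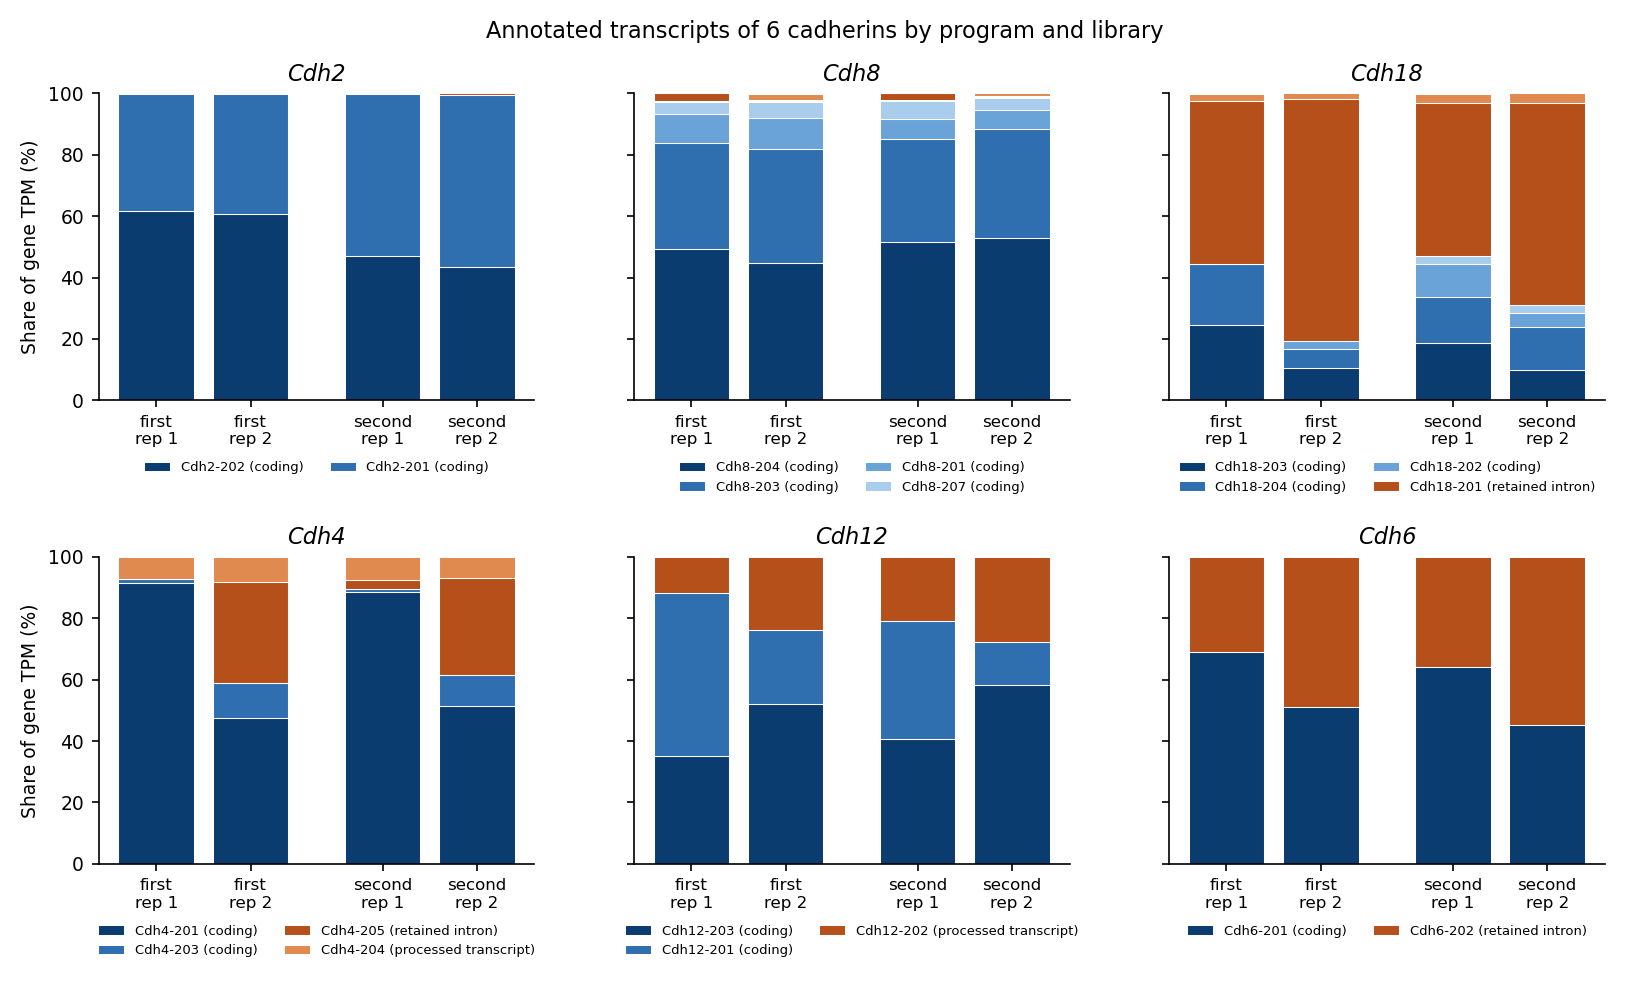
Share of gene TPM (%) on each annotated transcript of 6 cadherins, in 4 bars per gene: the first and second program, each with replicate 1 and replicate 2; blue tones are transcripts annotated as protein coding and orange tones are others, and transcripts under 5% in all bars are drawn but not named. The orange part is larger in replicate 2 than in replicate 1 for Cdh18, Cdh4, Cdh12 and Cdh6.

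Annotated transcripts divided the members into genes with 1 dominant coding form and genes with mixed output. Of 47 transcripts, 5 were at 0 in all 4 tables. The leading transcript by TPM was the same in both libraries and both programs for 7 of the 10 members. Cdh2 was led by Cdh2-202 in the first program (19.69 and 22.64 TPM, against 12.21 and 14.53 for Cdh2-201) and by Cdh2-201 in the second (13.80 and 16.40 TPM, against 12.38 and 12.71). The 2 forms share their stop codon and encode 849 and 906 codons. Such a disagreement of programs in both libraries was seen in 5.02% of 11324 coding genes with several transcripts. In the first program only Cdh12 had another leading transcript in replicate 2 (Cdh12-203) than in replicate 1 (Cdh12-201), against 10.1% of those genes; both of its forms hold the same coding sequence. In the second program only Cdh6 did, against 10.4%, with Cdh6-201 in replicate 1 and Cdh6-202 in replicate 2. Cdh9, Cdh10 and Cdh11 were nearly wholly coding: at least 91.3% of their TPM lay on full-length coding forms in each library and program.

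Cdh8 had 4 coding forms above 0.5 TPM in both libraries, and most of its TPM lay on forms that lack the conserved end printed above. Cdh8-204 was at 7.06 and 6.76 TPM and Cdh8-203, the full-length form, at 4.96 and 5.63 TPM. Cdh8-201 was at 1.34 and 1.51 TPM and Cdh8-207 at 0.58 and 0.82 TPM. Forms that reach the full-length stop codon thus held 34.6% and 37.2% of Cdh8 TPM, and 33.6% and 35.5% in the second program. Counted in reads the order turned: Cdh8-203 held 671 and 778 reads and Cdh8-204 551 and 539, since Cdh8-203 is 4594 bases long and Cdh8-204 2711. The junction at which the 2 forms part is shown because reads across it can tell them apart. Lower case marks the last 30 shared coding bases and capitals the bases that follow, on the minus strand of chromosome 8.
Cdh8-203, capitals chr8:99030786-99030875: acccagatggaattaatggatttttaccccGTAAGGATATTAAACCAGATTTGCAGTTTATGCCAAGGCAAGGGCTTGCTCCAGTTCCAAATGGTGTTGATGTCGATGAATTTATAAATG
Cdh8-204, capitals chr8:99024911-99024957: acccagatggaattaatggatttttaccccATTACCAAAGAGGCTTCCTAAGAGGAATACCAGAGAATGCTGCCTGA
The forms share their leading 2089 coding bases. Cdh8-204 then adds 47 bases, ending in a TGA stop codon, from an exon further along the gene, while Cdh8-203 goes on for 311. Cdh8-201 leaves at the same base and codes for 62 more bases, from a stretch that in Cdh8-203 lies past the stop codon. Cdh8-207 shares 2126 bases before it enters the exon that Cdh8-204 uses. The tables hold estimates per transcript and not junction reads, so the division of reads between these forms rests on each program's model.

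Cdh18 was the only member whose leading transcript was noncoding in both libraries and both programs. Cdh18-201, annotated as retaining an intron, was at 2.84 and 5.23 TPM; the second program put it at 2.27 and 3.37 TPM. A leading transcript that is not coding in either library by either program was found in 7.91% of the 11324 genes. Cdh18-201 shares 1630 coding bases with the full-length Cdh18-203 and then runs on into the intron (chr15:23446096-23446414, 319 bases). Cdh18-203 was at 1.30 and 0.69 TPM and Cdh18-204, a shorter coding form, at 1.06 and 0.41 TPM. The second program put Cdh18-203 at 0.84 and 0.50 TPM and Cdh18-204 at 0.68 and 0.73 TPM, so only Cdh18-203 was lower in replicate 2 in both programs. The full-length end was carried by 24.4% and 10.4% of Cdh18 TPM, and by 18.6% and 9.70% with the second program. Cdh18-203 and Cdh18-204 part at the same base at which Cdh18-201 enters the intron, and the 2 continuations are shown for that reason (plus strand). Lower case marks the shared bases before the junction and capitals the bases that follow it in each form.
Cdh18-203, capitals chr15:23460316-23460405: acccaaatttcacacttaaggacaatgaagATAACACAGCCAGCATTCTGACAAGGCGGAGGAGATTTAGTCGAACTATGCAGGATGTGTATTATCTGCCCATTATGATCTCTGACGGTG
Cdh18-204, capitals chr15:23460425-23460514: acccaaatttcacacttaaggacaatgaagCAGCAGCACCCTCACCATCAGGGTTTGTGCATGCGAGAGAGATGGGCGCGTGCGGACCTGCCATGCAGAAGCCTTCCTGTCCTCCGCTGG
Cdh18-204 enters the same exon further downstream and codes for 95 more bases, against 743 in Cdh18-203. All 1725 of its coding bases, stop codon included, also lie in the coding sequence of Cdh18-203. Within the coding sequence the junction, and not the capitals of Cdh18-204, thus tells the 2 forms apart. The gene row of Cdh18, at 5.33 and 6.63 TPM, was higher in replicate 2. The estimate for its full-length form was lower, with 103 reads in replicate 1 and 55.7 in replicate 2. The first program's credibility bounds for that form overlapped, at 0.73 to 2.16 TPM in replicate 1 and 0.28 to 1.27 TPM in replicate 2. In replicate 1 its bounds for Cdh18-201 (0.78 to 3.60 TPM) overlapped those of Cdh18-203 and of Cdh18-204 (up to 1.85 TPM), so the lead of Cdh18-201 was not settled there. The division of reads between the Cdh18 forms rests on each program's model.

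Cdh6 and Cdh12 also carried part of their TPM on noncoding transcripts. Cdh6-201, the coding form, was at 1.01 and 1.00 TPM and held 247 and 248 reads, while the retained-intron form Cdh6-202 was at 0.45 and 0.96 TPM with 22.7 and 49.0 reads. The higher Cdh6 TPM estimate in replicate 2 thus lay on Cdh6-202. The first program's credibility bounds for Cdh6-202 overlapped, at 0.11 to 0.79 TPM in replicate 1 and 0.55 to 1.37 TPM in replicate 2. Cdh6-202 shares 938 of its 1795 bases with Cdh6-201, so the division of reads between them rests on each program's model. In Cdh12 the 404-base Cdh12-202 held 2.18 and 6.00 reads, which made 11.7% and 23.9% of the gene's TPM. In Cdh13 the coding form Cdh13-201 was at 29.22 and 28.45 TPM, or 90.4% and 87.4% of the gene, and its share was 87.9% and 71.6% with the second program.

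**Figure D4:**
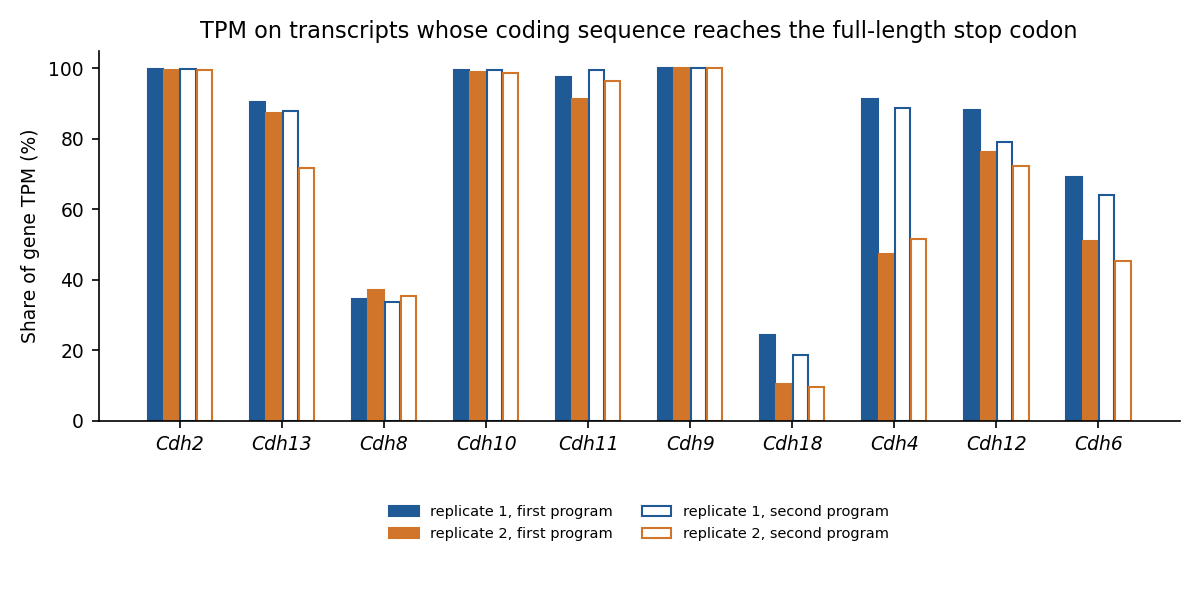
Share of gene TPM (%) on transcripts whose coding sequence reaches the stop codon of the gene's longest coding form, per library (blue replicate 1, orange replicate 2) and program (filled first, open second). Cdh2, Cdh9, Cdh10 and Cdh11 lie above 91%, Cdh8 near 35% and Cdh18 below 25%, and Cdh4 is at 91.4% in replicate 1 and 47.4% in replicate 2 in the first program.

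The coding share of most members was lower in replicate 2, and the size of the change varied widely. It was lower in replicate 2 in 9 of the 9 members that have both coding and other transcripts, against 49.7% of 9840 such genes, and by over 10 percentage points in 4 of them (Cdh4, Cdh18, Cdh6 and Cdh12), against 7.56%. It hardly moved in Cdh2 (99.7% in both libraries), Cdh10 (99.6% and 99.1%) and Cdh8 (97.6% and 97.4%). With the second program the coding share was lower in 8 of 9 (all genes 52.9%) and higher in Cdh8 (97.8% and 98.9%). The second program had it lower by over 10 points in 4, with Cdh13 in place of Cdh12 (all genes 7.88%). Among 1718 genes spanning 100 kb or more, as the members do, these background shares were 51% and 9.2% with the first program and 54.7% and 10.4% with the second. Neither background was matched for level or number of reads. The 4 members over 10 points lower in the first program were the 4 lowest by mean TPM, from 1.71 (Cdh6) to 5.98 (Cdh18). Over all 9840 genes, retained-intron transcripts held 5.48% of TPM in replicate 1 and 5.83% in replicate 2. The members share the same 2 libraries, so these are not independent observations, and the cause was not tested.

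The other type I and type II cadherins were mostly lower than the members. Of 9, 4 reached 1 TPM in both libraries. Of the 7 with enough reads to be tested 0 were called (all genes 2.41%). At any size, 1 of them (Cdh7) had an adjusted p under 0.05 (all genes 46.8%). The 3 highest were Cdh22 (8.48 and 8.36 TPM), Cdh19 (3.70 and 4.29 TPM) and Cdh7 (2.41 and 1.06 TPM). Cdh7 held 246 and 127 reads, a log2 ratio of -0.96 that fell just short of the call (exact binomial test, adjusted p = 3.9e-09). The fourth was Cdh15, or M-cadherin, at 1.5 and 1.69 TPM. Cdh5, the cadherin of endothelium, was at 0.79 and 0.77 TPM although the endothelial markers summed to 225 and 282 TPM. Epithelial cadherin Cdh1 was lowest, with 33 and 16 reads, and placental cadherin Cdh3 held 73 and 5 reads. Both were under the minimum for the test, and both were higher in replicate 1, the library with the higher choroid plexus markers; the part of those cells in these values was not tested.

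Catenins bind the cadherin tail or link it to actin. Of 9 catenin genes 8 reached 1 TPM in both libraries and 0 were called (all genes 2.41%). At an adjusted p under 0.05 at any size, 3 were higher and 1 lower in replicate 2 (all genes 46.8% in either direction). Ctnnb1, which encodes beta-catenin, was at 109 and 112 TPM, Pkp4 at 44.2 and 41.7 TPM and Jup, which encodes plakoglobin, at 28.1 and 47.0 TPM. Jup had the largest difference of the list, a log2 ratio of 0.54, and Ctnna1, or alpha-E-catenin, had one of -0.40. The lowest was Ctnna3, at 0.74 and 0.84 TPM. All 10 adherens junction partners and all 7 genes of cadherin maturation and shedding reached 1 TPM. In either list 0 were called (all genes 2.41%). At an adjusted p under 0.05 of any size, 1 partner was higher and 3 were lower in replicate 2. By the same measure 1 maturation gene was higher and 2 were lower (all genes 46.8% in either direction). The highest partners were Lin7b (171 and 176 TPM), Lin7c (34.1 and 20.7 TPM) and Afdn, which encodes afadin (11.8 and 12.9 TPM), and the lowest was Nectin1 (1.97 and 1.79 TPM). Of the maturation and shedding genes, the gamma-secretase subunit Ncstn was at 32.6 and 33.2 TPM and the sheddase Adam10 at 27.8 and 19.9 TPM, and the proprotein convertase Furin was lowest at 2.16 and 2.08 TPM.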

How the data were processed

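Per the file headers and the deposited readme, reads were assigned to GRCm38 (mm10) with annotation M21. The authors deposited, for each library, gene and transcript tables of a first program with expected counts, TPM, FPKM and credibility bounds, derived from a transcriptome alignment, and a transcript table of a second program with estimated counts and TPM. Which programs and versions made them is not given in the sources used here. Spike-in and numbered rows were left out (2.3e-05% and 1.6e-05% of expected counts). Second-program values were summed per gene. Expected counts were rounded, scaled with TMM (edgeR 4.0.16) and compared by a two-sided exact binomial test (scipy 1.17.1) over genes with a mean count of at least 50, Benjamini-Hochberg adjusted, with a prior count of 0.5; with 1 library a side no model across replicates could be fitted, and intervals cover counting error only. The test was also run on counts simulated with counting error only and no spread between libraries. It called 100 of 100 genes changed by a log2 ratio of 1.5, 100 of 100 changed by -3 and 0 of 13895 unchanged genes. That simulation cannot show how the test behaves with spread between libraries or near the threshold of 1. Coding sequences come from the GENCODE M21 transcripts; whole coding sequences were aligned globally (Biopython 1.88), and the 36-base stretch was placed as the best ungapped match to Cdh6-201 within the last 90 coding bases. Protein sequences were not used here. Named were all 10 members, and of each related list every called gene, the 3 highest and the lowest by mean TPM, with other cadherins, Jup and Ctnna1 named after their values were seen. A gene of the maturation list that this rule names and a sequence stretch of the set are not reported here. The members and lists were chosen with earlier results of these data known. Alternatives were the scaling, the minimum, the prior count, the test and its dispersion, the program, FPKM, coding transcripts only and each library alone.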

Additional observations from a re-analysis of the deposited data

How the results depend on the processing

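The summed level of the 10 members, 127.6 TPM, became 106.6 with the second program and 116.7 with protein-coding transcripts only, and it ranged from 125.2 to 130.0 with either library left out. The share of Cdh2 and Cdh13, 52.6%, became 54.3% with coding transcripts only and lay between 51.4% and 53.7% in the other settings. The number of called members was 1 with DESeq2 size factors, library totals, no minimum, a minimum of 200 and edgeR's exact test with a preset dispersion of 0.01, and 0 with a prior count of 5, with the second program's counts and, chosen after seeing the data, with the TPM ratio of either program or with the dispersion estimated from these libraries; Cdh4 was the gene concerned each time. With no minimum 839 of 26748 genes were called, with a minimum of 200 152 of 11269, with the estimated dispersion 174 of 14080 and in the main comparison 339 of 14078. In the exact binomial test the adjusted p of Cdh11 was 0.046. It became 0.064 with DESeq2 size factors, 0.078 with no minimum and 0.11 with the second program's counts. For Cdh12 the adjusted p in that test was 0.089, and 0.0050 with the second program's counts. The leading transcript by mean TPM was unchanged in 9 of 10 members with the second program, with coding transcripts only or with replicate 1 alone, and in 10 with replicate 2 alone. Ranked by coding transcripts only, Cdh18 moved from place 7 to place 9 of 10. Of 35 related genes 29 were detected at 1 TPM by either program and 33 at 0.5 TPM. No test between libraries was possible with a library left out, and no paired analysis was possible because there is 1 group. The spread of counts between the 2 libraries (edgeR's common biological coefficient of variation) was 16.6% over 16640 genes.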
